A study of Mus musculus with 4 samples.

Results

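The genes described here are 10 genes of skeletal muscle fibres: Ckm, Mb, Actn3, Mylpf, Tnnc2, Tnni2, Tnnt3, Tnnt1, Atp2a1 and Ryr1. They were chosen by their signals on these same arrays, where earlier results had shown that pools of 1 genotype differed in muscle genes. Every probe set paired with exactly 1 of these symbols was used, which gave 15 probe sets of 34945 with 1 symbol, and 10 genes of 18193. The arrays were hybridised with RNA from aortas of mice aged 6 weeks, either wild-type littermates (WT) or animals in which Smad4 was knocked out in smooth muscle cells (Smad4-KO). For an array, 3 to 5 aortas were pooled and 400 ng of their RNA was labelled. A genotype had 2 such arrays, named replicate 1 and replicate 2. The labels name neither the Cre driver nor the strain, and by this design cells other than smooth muscle keep Smad4. A signal is the intensity deposited for a probe set, on a linear scale. Smad4 itself, at the probe set of its highest signals, read 4394 and 3819 in WT against 2676 and 3580 in Smad4-KO, which limma did not call (-0.40 ± 0.32, adjusted p = 0.626). The genotypes did not overlap there, with Smad4-KO lower. At a second bright Smad4 probe set, with 4306 and 3550 in WT against 2018 and 4166 in Smad4-KO, they did overlap, and Smad4-KO replicate 2 was at the level of WT. The remaining Smad4 probe set was dimmer, at 1213 and 1778 in WT against 658 and 942 in Smad4-KO (log2 difference -0.90). The genotypes did not overlap at this dimmer probe set, and both Smad4-KO arrays were lower. Whether the probes of these Smad4 probe sets lie in the deleted part is not given.

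Skeletal muscle fibres contract when calcium leaves the sarcoplasmic reticulum through the ryanodine receptor and binds troponin C on the thin filament, which lets myosin pull on actin. A calcium pump then returns calcium to the reticulum. Fast and slow fibres use separate genes for many of these proteins, while the smooth muscle of an artery is switched mainly by phosphorylation of the myosin light chain rather than by troponin. Among the 10 genes, Tnnt1 encodes the troponin T of slow fibres, and Mb is most abundant in oxidative fibres and in the heart, so the set is not purely one of fast fibres.

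On the array labelled Smad4-KO replicate 2, most of these genes gave signals several times those on the other arrays. The WT arrays and Smad4-KO replicate 1 resembled each other in their medians. For a gene with several probe sets, the one with the highest average log2 signal stands for it. The median signal of the 10 genes was then 79.9 and 78.7 for WT, 77.9 for Smad4-KO replicate 1 and 443 for Smad4-KO replicate 2. By gene, the log2 difference of Smad4-KO replicate 1 from the WT mean ran from -1.47 to 1.40. Smad4-KO replicate 2 was the highest array for 9 of the 10 genes and for 12 of the 15 probe sets. The genes were chosen with these values known, so the values are a description. No detection calls accompany the signals, so whether a low signal lay above background is unknown, and a signal of 64 is used below as a floor.

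The sequences that precede the start of 3 members are shown because they include a troponin gene with a large difference between the Smad4-KO pools, the creatine kinase gene, and a troponin gene that did not follow them. Each is the 250 bases before the gene's start in RefSeq (build GRCm38.p6), read 5′ to 3′ on the gene's strand. Capitals mark CANNTG, the E-box core that basic helix-loop-helix factors such as the myogenic regulators bind. Tnnc2 lies on the minus strand (chr2:164779735-164779984), Ckm on the plus strand (chr7:19410844-19411093) and Tnnt1 on the minus strand (chr7:4515976-4516225).
Tnnc2: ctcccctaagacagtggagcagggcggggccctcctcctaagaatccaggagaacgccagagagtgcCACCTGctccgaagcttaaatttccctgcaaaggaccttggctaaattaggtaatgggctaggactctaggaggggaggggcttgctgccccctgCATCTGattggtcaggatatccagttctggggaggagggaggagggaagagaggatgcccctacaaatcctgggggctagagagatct
Ckm: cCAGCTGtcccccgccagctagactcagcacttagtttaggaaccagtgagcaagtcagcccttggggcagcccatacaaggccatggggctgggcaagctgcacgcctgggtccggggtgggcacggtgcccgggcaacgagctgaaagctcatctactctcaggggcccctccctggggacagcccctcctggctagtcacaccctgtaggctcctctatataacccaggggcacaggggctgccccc
Tnnt1: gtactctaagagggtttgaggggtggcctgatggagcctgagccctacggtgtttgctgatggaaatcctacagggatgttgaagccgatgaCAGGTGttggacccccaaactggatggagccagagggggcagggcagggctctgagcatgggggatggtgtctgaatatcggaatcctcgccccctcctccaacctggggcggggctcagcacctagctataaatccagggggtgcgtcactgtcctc
The E-box core stands at -183 and -88 in Tnnc2, at -249 in Ckm and at -158 in Tnnt1, counted to its first base from the start. Of the 10 members, 7 had an entry in the RefSeq promoter table, with 9 windows in all. CANNTG, which reads the same on both strands in this spelling, was in 8 of the 9 windows and in 66.2% of the 32851 windows of all genes. Its case CAGCTG was in 5 of the 9 and in 13.0% of all. The MEF2 motif was in 0 of the 9 (2.92% of all) and the CArG motif in 0 of the 9 (1.47% of all), searched on both strands. TATAAA, also searched on both strands, was in 1 of the 9, that of Tnnt1, and in 12.4% of all. Of the Mb windows, 2 overlap each other, so a match can count in both. A match is a description of the letters, not a bound site.

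**Figure D1:**
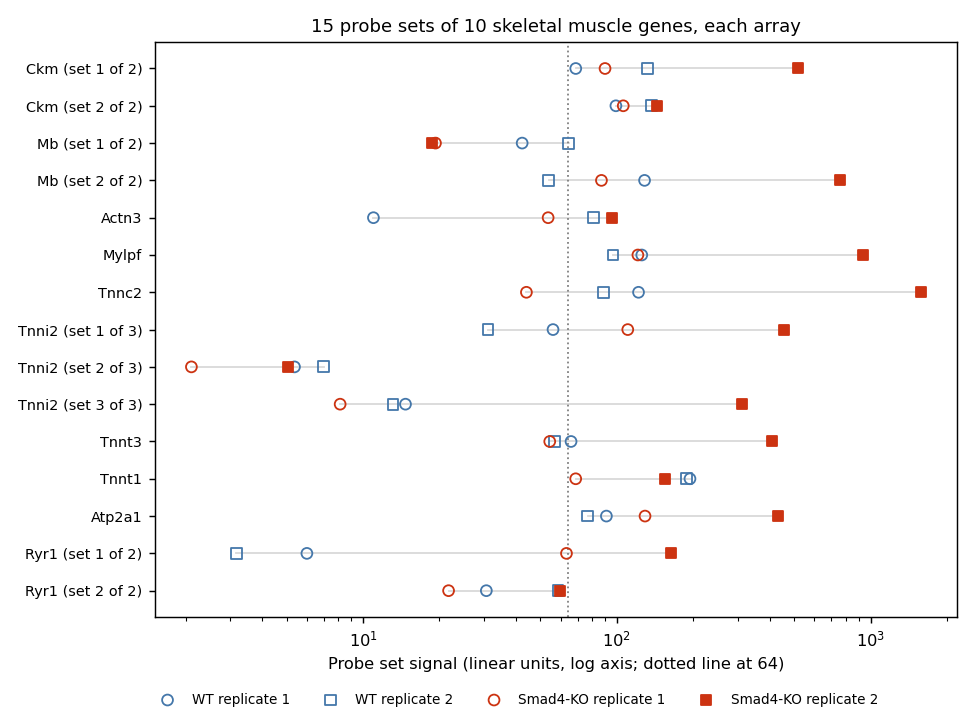
Signal of each of the 15 probe sets (rows) on each of the 4 arrays (points), on a log axis; blue marks WT, red marks Smad4-KO, circles mark replicate 1, squares mark replicate 2, and the dotted line stands at 64. Smad4-KO replicate 2 (filled squares) lies at least 2-fold to the right of every other array in 9 of the 15 probe sets.

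The troponins form the calcium switch of the thin filament, and Tnnc2 is the calcium-binding subunit of fast fibres. Tnnc2 read 122 and 88.3 on the WT arrays, 44.0 on Smad4-KO replicate 1 and 1578 on Smad4-KO replicate 2. Only Smad4-KO replicate 2 was high, 13.0-fold above the next array, and Smad4-KO replicate 1 was the lowest. With signals below 64 raised to 64, the difference between the Smad4-KO pools was 24.7-fold (35.8-fold as deposited). Among the 13645 genes past the filter on low signal, this was the largest rise from Smad4-KO replicate 1 to replicate 2, with and without that floor. Among all 18193 genes with a probe set, dim ones included, it ranked 9 as deposited.

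Tnni2, the inhibitory subunit of fast fibres, read 56.0 and 31.1 in WT, 110.4 on Smad4-KO replicate 1 and 454 on Smad4-KO replicate 2. The Smad4-KO arrays were both above the WT arrays, and the higher of them was 4.11-fold above the lower. Its 2 other probe sets did not give the same picture. One read 14.7, 13.1, 8.13 and 310 for replicates 1 and 2 of WT and then of Smad4-KO, high on the last array alone. The other stayed between 2.11 and 7.01 on all arrays, with WT replicate 2 highest.

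Tnnt3, the subunit that ties fast troponin to tropomyosin, read 66.0 and 56.6 in WT, 54.4 on Smad4-KO replicate 1 and 408 on Smad4-KO replicate 2. The first 3 values were close together, and the last stood 6.19-fold above the next. RefSeq places 2 annotated genes, Lsp1 and Prr33, between Tnni2 and Tnnt3.

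Tnnt1, the slow counterpart of Tnnt3, was the exception among the members. It read 194 and 188 in WT, 68.8 on Smad4-KO replicate 1 and 155 on Smad4-KO replicate 2, so the genotypes did not overlap and Smad4-KO was the lower. Smad4-KO replicate 2 was still 2.25-fold above the other Smad4-KO pool.

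Mylpf encodes the fast regulatory light chain that wraps the neck of skeletal myosin. It read 125 and 96.6 in WT, 121 on Smad4-KO replicate 1 and 931 on Smad4-KO replicate 2. The WT arrays and Smad4-KO replicate 1 overlapped, and Smad4-KO replicate 2 lay 7.43-fold above the highest of them. Actn3, the alpha-actinin that crosslinks actin at the Z-disc of fast fibres, behaved differently. Its signals were 10.99 and 80.7 in WT, 53.6 on Smad4-KO replicate 1 and 95.5 on Smad4-KO replicate 2. The highest array was 1.18-fold above the next. The signals of WT replicate 1 and Smad4-KO replicate 1 lay below 64, and with these raised to 64 the WT arrays differed by 1.26-fold.

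Atp2a1 encodes the fast-fibre calcium pump of the sarcoplasmic reticulum, and Ryr1 the calcium release channel. Atp2a1 read 90.9 and 76.6 in WT, 129 on Smad4-KO replicate 1 and 431 on Smad4-KO replicate 2. As with Tnni2, both Smad4-KO arrays were above both WT arrays, and replicate 2 was 3.34-fold above replicate 1. The Ryr1 probe set of higher mean read 30.6 and 58.6 in WT against 21.7 and 59.9 in Smad4-KO, all below 64 and overlapping between genotypes. Its second probe set read 6.01 and 3.17 in WT against 63.3 and 164 in Smad4-KO, with replicate 2 again the highest. The Ryr1 probe sets therefore disagreed, and as a gene Ryr1 was below the filter on low signal.

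Ckm, the muscle creatine kinase that buffers ATP, read 68.9 and 132 in WT, 89.8 on Smad4-KO replicate 1 and 516 on Smad4-KO replicate 2. The last array was 3.92-fold above the next, and the other 3 overlapped. A second Ckm probe set was nearly level, between 99.1 and 144 on all arrays. Mb, the oxygen-binding protein myoglobin, read 129 and 54.0 in WT, 87.0 on Smad4-KO replicate 1 and 757 on Smad4-KO replicate 2, a 5.89-fold step above the next array. The second Mb probe set moved the other way, at 42.4 and 64.7 in WT against 19.3 and 18.6 in Smad4-KO.

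Differences between the pools of a genotype were then set side by side. Between the Smad4-KO pools, 9 of the 10 genes were at least 2-fold higher on replicate 2, against 6.59% of all genes tested, and 0 were at least 2-fold lower, against 7.70%. The exception was Actn3, 1.78-fold higher. These shares are over genes past the filter on low signal, which leaves out Actn3 and Ryr1. Of the 8 members past it, 8 were at least 2-fold higher and 0 lower. The log2 differences ran from 0.83 (Actn3) to 5.16 (Tnnc2), with a median of 2.28 over the 10 genes, where the median of all genes with a probe set was -0.04. Between the WT pools, 1 gene was at least 2-fold higher on replicate 2 (Actn3, 3.60% of all genes tested) and 1 at least 2-fold lower (Mb, 7.17% of all genes tested), with a median of -0.23. Of the 8 past the filter, 0 were higher and 1 lower. With signals below 64 raised to 64, the counts between the Smad4-KO pools were 8 higher and 0 lower (5.66% and 6.97% of all genes tested), without Ryr1. Those between the WT pools were then 0 higher and 1 lower (2.16% and 5.25%), without Actn3. Each of these is a comparison of 1 array with 1 array, so it has no test.

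**Figure D2:**
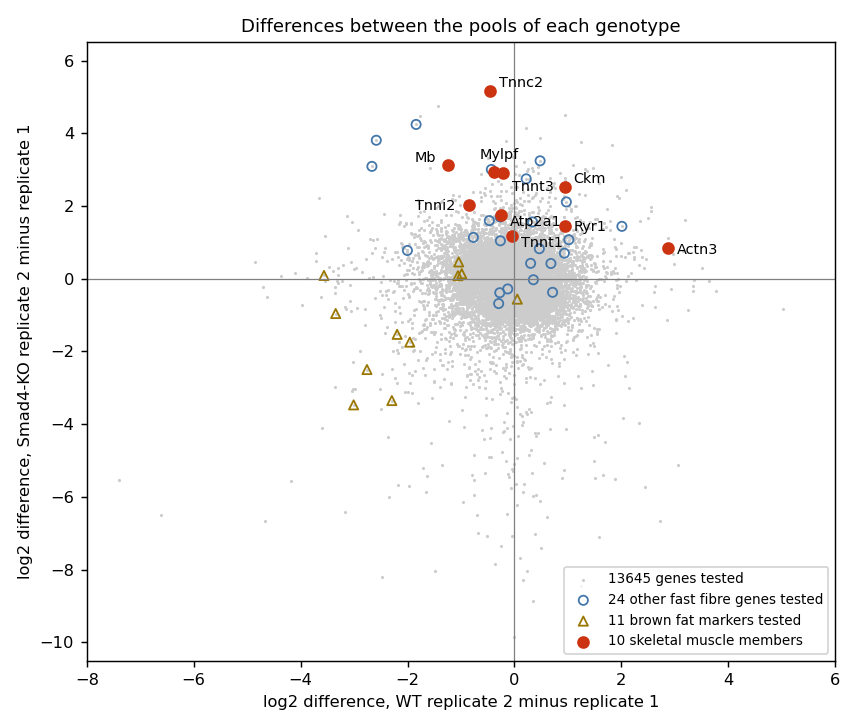
Log2 difference between the WT pools (horizontal axis) against that between the Smad4-KO pools (vertical axis), both replicate 2 minus replicate 1, for the 13645 genes tested (grey), the 10 muscle genes (red), other fast fibre genes (blue circles) and brown fat markers (triangles). The 10 genes all lie above 0 on the vertical axis, from 0.83 to 5.16, and on both sides of 0 on the horizontal axis.

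The comparison of genotypes depended on which Smad4-KO pool was used. The median log2 difference between Smad4-KO and WT was 1.32 over the 10 genes and 1.42 over the 8 past the filter (Actn3 and Ryr1 were too dim), beside -0.0056 over all genes tested. Over those 8 genes it was 2.91 with Smad4-KO replicate 2 alone and -0.011 with Smad4-KO replicate 1 alone. A value after ± is the standard error of a log2 difference from limma, fitted over all genes tested. It was 1.35 ± 1.59 for Tnnc2, 1.61 ± 0.94 for Mylpf, 2.42 ± 0.73 for Tnni2, 1.29 ± 0.93 for Tnnt3 and -0.89 ± 0.46 for Tnnt1. Limma at an adjusted p of 0.05 called 0 of the 8 (1 at an unadjusted p under 0.05), where it called 6.31% of the genes tested. Fitted on every probe set by itself, it called 0 of the members' 11 past the filter (1 at an unadjusted p under 0.05), beside 0.782% of all probe sets. Without Smad4-KO replicate 1 it called 6 of the 8 higher (Mb, Mylpf, Tnnc2, Tnni2, Tnnt3 and Atp2a1), beside 4.27% of all genes tested. Without Smad4-KO replicate 2 it called 0 of the 8 (3 had an unadjusted p under 0.05), where 808 of all genes were called in either direction. In these fits the lone Smad4-KO array is assumed to vary as the WT arrays do, since they alone give the spread. Both Smad4-KO arrays lay above both WT arrays for 2 of the 10 genes (24.5% of all genes with a probe set) and below both for 1 (20.0%). Nothing is read from these counts, since the genes were chosen with the values known.

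A list of 42 other fast fibre genes held genes that were high on Smad4-KO replicate 2 and genes that were not. Some of its genes, such as Jph2, Ldb3, Myom1, Actn2 and Fbxo32, are not particular to fast fibres. Of its 40 genes with a probe set, 8 stood at least 2-fold above each other array on Smad4-KO replicate 2 when signals below 64 were raised to 64, a measure chosen after the values were seen. For all genes that share was 1.63%, and 7 of the 10 members met it. Myh1, the myosin heavy chain of fast type 2X fibres, read 382 and 107 in WT, 379.6 on Smad4-KO replicate 1 and 7191 on Smad4-KO replicate 2. Myh2, the heavy chain of type 2A fibres, read 64.7 and 10.8 in WT, 85.6 on Smad4-KO replicate 1 and 1200.1 on Smad4-KO replicate 2. Both myosins were high on the last array alone, 18.8-fold and 14.0-fold above the next.

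Acta1, the actin of skeletal muscle fibres, read 87.4 and 64.7 in WT against 248 and 1989 in Smad4-KO, and Ttn, the giant spring protein titin, 53.6 and 74.8 in WT against 84.1 and 796 in Smad4-KO. Pvalb, a calcium buffer of fast fibres, read 104 and 16.3 in WT against 52.3 and 446 in Smad4-KO. Myom2, Smpx and Myot, proteins of the sarcomere or its periphery, were below 64 on the other arrays and read 228, 231 and 184 on Smad4-KO replicate 2. Myh4, the heavy chain of the fastest type 2B fibres, stayed between 28.7 and 49.0 on all arrays. Actn2, an alpha-actinin of the Z-disc, stood out instead on WT replicate 2 (557, against 73.8 to 201), where 0.396% of all genes did. Myl1, an essential light chain of fast myosin, was high on both Smad4-KO arrays (1004 and 1721) and read 446 and 111 in WT. These genes were picked for their values, apart from their membership of the list.

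**Figure D3:**
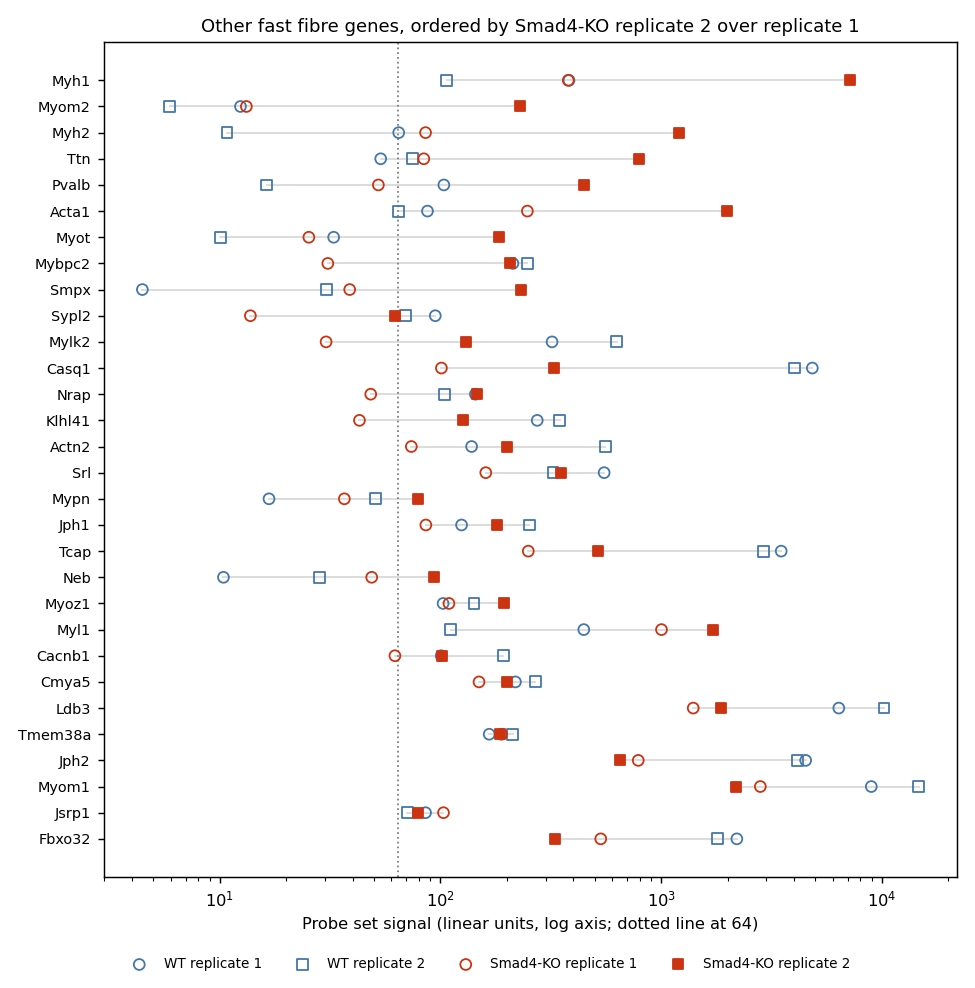
Signal of the 30 other fast fibre genes that reached 64 on at least 1 array, on a log axis with symbols for the 4 arrays, ordered by the difference between the Smad4-KO pools. At the top (Myh1, Myom2, Myh2, Ttn) only the filled square of Smad4-KO replicate 2 lies to the right; Casq1, Tcap, Ldb3, Jph2, Myom1 and Fbxo32 lie to the right in both WT arrays.

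Other genes of the same list were high in both WT pools and lower in both Smad4-KO pools. Limma called 6 of the 24 genes tested lower and 0 higher, beside 1.39% of all genes tested called lower and 4.92% higher. Casq1, which stores calcium in the reticulum, read 4843 and 4026 in WT against 101 and 328 in Smad4-KO, and fell 24.3-fold (-4.60 ± 0.59, limma, adjusted p = 0.0191). Tcap, a cap of titin at the Z-disc, read 3501 and 2916 in WT against 250.1 and 516 in Smad4-KO and fell 8.90-fold (-3.15 ± 0.43, limma, adjusted p = 0.0209). For both genes the genotypes did not overlap. When the pairs of arrays alike in labelling (WT replicate 1 with Smad4-KO replicate 2, and the other two) entered limma as a block, 0 of the 6 were called, with adjusted p of 0.0557 for Casq1 and 0.0559 for Tcap. That fit called 0 of all genes, with 2658 at an unadjusted p under 0.05.

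Jph2, which holds the reticulum to the cell membrane, fell 6.05-fold (-2.60 ± 0.30), and Ldb3, a Z-disc scaffold, 5.00-fold (-2.32 ± 0.38). The others called were Myom1, a protein of the M-band (-2.21 ± 0.38), and Fbxo32, a ubiquitin ligase of muscle wasting (-2.24 ± 0.37). Casq1 and Tcap were higher on Smad4-KO replicate 2 than on replicate 1, while Jph2, Myom1 and Fbxo32 were lower there. The median log2 difference of the 24 genes was -0.68, and 16 of the 24 were negative. Both Smad4-KO arrays lay above both WT arrays for 4 of the 24 (25.9% of all genes tested) and below both for 10 (21.4%). Between the Smad4-KO pools 14 of the 24 were at least 2-fold higher on replicate 2 (6.59% of all genes tested). A fit without Smad4-KO replicate 1 drops the lower Smad4-KO pool of these genes, so its calls of higher restate that known excess. Genes were filtered on the mean of all 4 arrays, so the excess also counted towards passing the filter. Without Smad4-KO replicate 1, where WT alone gives the spread, limma called 4 of the list higher, Myh1, Myh2, Acta1 and Ttn (4.27% of all genes tested), and 4 lower (1.06%). Without WT replicate 1, and without WT replicate 2, it called 0 of the list lower. Those fits called 0.132% and 0.00% of all genes tested lower, so these counts say nothing about the list. Of 15 smooth muscle markers, 14 had negative differences and limma called 7 lower (1.39% of all genes tested). Their part in the differences of the list was not tested.

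Enzymes of muscle metabolism were split between arrays. Of 20 genes with a probe set, 2 stood out on Smad4-KO replicate 2: Ckmt2, the creatine kinase of muscle mitochondria (254, against 3.30 to 20.5 on the other arrays), and Cox6a2, a muscle subunit of cytochrome oxidase (436, against 122 to 153). A further 4 stood out on WT replicate 1, where 0.660% of all genes did: Gpd1, Cox7a1, Cox8b and Slc2a4. Of these, Cox7a1 and Cox8b are also in the list of brown fat markers described below. Pygm, the glycogen phosphorylase of muscle, read 426 and 380.4 in WT against 120.1 and 128 in Smad4-KO and fell 3.25-fold (-1.70 ± 0.29, limma, adjusted p = 0.0353). It was the only one of 16 tested that limma called, beside 6.31% of all genes tested called in either direction, so nothing is read from this count.

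Slow fibre genes gave mixed values. Mybpc1, a slow myosin-binding protein, was high on Smad4-KO replicate 2 alone (253, against 11.2 to 28.6), and Myl2, the slow regulatory light chain, read 206 there against 8.69 to 70.9. Myh7, the slow myosin heavy chain, read 204 and 208 in WT against 12.7 and 110 in Smad4-KO, lower in both Smad4-KO pools. Limma called 1 of 11 lower and 0 higher (1.39% and 4.92% of all genes tested): Myoz2, a Z-disc protein that binds calcineurin (-3.77 ± 0.74, adjusted p = 0.048). The median difference of the 11 was -0.06.

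Genes of forming muscle and of its stem cells did not stand out on Smad4-KO replicate 2, though many were too dim to do so. Of 13 genes of developing muscle and the neuromuscular junction, 0 stood out on any array, and Myh3, the embryonic myosin, stayed between 3.53 and 35.5. Of these 13, 6 lay below 64 on every array and could not stand out by this measure. The same held for 5 of the 15 myogenic regulators and satellite cell genes. The myogenic regulators Myod1 (24.4 to 76.2), Myog (17.9 to 54.4), Myf5 (0.807 to 7.32) and Myf6 (4.92 to 36.7), and the satellite cell factor Pax7 (4.41 to 34.0), had no array at 100 or above. Limma called Ncam1, a cell adhesion molecule, lower (-2.32 ± 0.31, adjusted p = 0.0202), 1 of 4 tested (1.39% of all genes tested). Chrna1, of the same list, was below the filter on low signal. It read 259 and 182 in WT against 7.13 and 7.37 in Smad4-KO. Eya1, a transcriptional coactivator, was called higher (3.03 ± 0.37, limma, adjusted p = 0.0178), 1 of 9 tested (4.92% of all genes tested). Its signals were 70.9 and 119 in WT against 809 and 696 in Smad4-KO.

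Markers of other cells were read on the same arrays, and their part in the muscle values was not tested. Heart muscle shares Mb, Ckm and Ttn with skeletal fibres. Of 15 cardiac markers 0 stood out on Smad4-KO replicate 2, though 3 of them lay below 64 on every array and could not. The atrial peptide Nppa read 45.8 and 43.9 in WT against 33.3 and 30.8 in Smad4-KO. Myl7, the atrial light chain, read 9.54 and 174 in WT against 8.23 and 3.47 in Smad4-KO. The cardiac list summed to 2671 and 3413 in WT against 4506 and 4808 in Smad4-KO, but without Hand2 and Tbx20 to 2470 and 3178 in WT against 2420 and 2021 in Smad4-KO. Of the 11 cardiac markers tested 7 had negative differences, with a median of -0.35. Limma called 2 of 11 higher, Hand2 (4.49 ± 0.35) and Tbx20 (2.16 ± 0.29), and 1 lower, the cardiac myosin Myh6 (-2.44 ± 0.38). Of all genes tested it called 4.92% higher and 1.39% lower. Smooth muscle markers, which define the labelled tissue, summed to 230602 and 262744 in WT against 94787 and 107335 in Smad4-KO, and limma called 7 of 15 lower, led by Synpo2 (-2.96 ± 0.40). In RNA of whole vessels, more cells of a type and more RNA per cell cannot be told apart.

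Brown fat, which surrounds the thoracic aorta, was uneven in another direction. Of its 11 markers with a probe set, 7 stood out on WT replicate 1, and 0 of them did so on Smad4-KO replicate 2. Cox7a1 and Cox8b are among the 7 and were counted with muscle metabolism as well. Ucp1, the uncoupling protein of brown fat, read 9417 and 1170 in WT against 773 and 69.9 in Smad4-KO. The brown fat list summed to 49099 and 10982 in WT against 16206 and 6933 in Smad4-KO, and limma called 0 of 11, with 5 at an unadjusted p under 0.05. Kng1, which codes for a kininogen, is 1 of these 5 and went against the rest (4.33 ± 1.16). It read 356 and 52.6 in WT against 6532 and 1158 in Smad4-KO, and stood out on Smad4-KO replicate 1. Whether its signal came from brown fat was not tested. Without it the sums were 48743 and 10929 in WT against 9674 and 5776 in Smad4-KO, which puts Smad4-KO replicate 1 below WT replicate 2. Smad4-KO replicate 2, the array on which 9 of the 10 muscle genes were highest, had the lowest sum of brown fat markers with and without Kng1.

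Macrophage markers summed to 13459 and 9052 in WT against 52893 and 68735 in Smad4-KO. Of 10, limma called 7 higher (4.92% of all genes tested), and 3 (Csf1r, Aif1 and Fcgr1) stood out on Smad4-KO replicate 2 (1.63% of all genes). Another 2, Itgam and Mrc1, stood out on Smad4-KO replicate 1. Nerve cell markers summed to 2028 and 1843 in WT against 40171 and 29888 in Smad4-KO, with 9 of 9 called higher and 0 standing out on Smad4-KO replicate 2. Lymphocyte markers summed to 1512 and 704 in WT against 10987 and 3976 in Smad4-KO, and 3 of 9 stood out on Smad4-KO replicate 1, where 2.30% of all genes did. White fat (0 of 9), endothelial (0 of 10) and fibroblast markers (0 of 9) did not stand out on Smad4-KO replicate 2, and limma called 0 of each, with 0, 1 and 0 at an unadjusted p under 0.05.

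**Figure D4:**
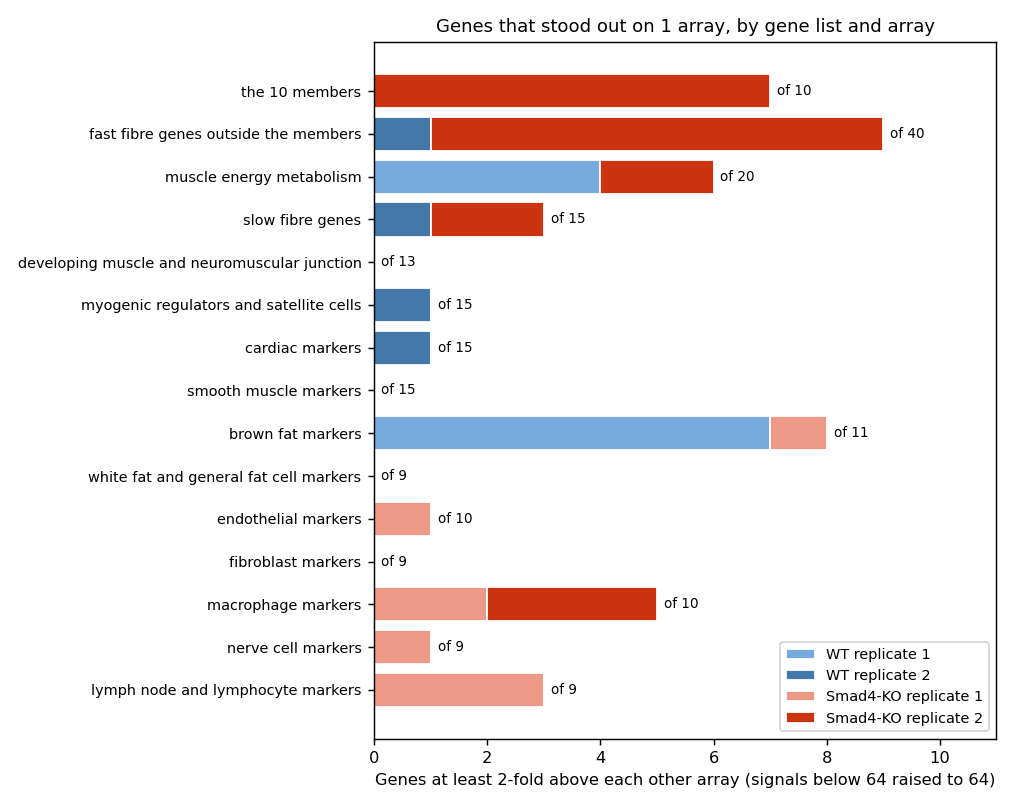
Number of genes in each list that stood at least 2-fold above each other array, coloured by the array, with signals below 64 raised to 64; the text after each bar gives the genes with a probe set. The members (7 of 10) and other fast fibre genes (8 of 40) stand out on Smad4-KO replicate 2, and brown fat markers (7 of 11) on WT replicate 1.

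Technical measures also differed between arrays. For the labelling control Dap, 3′ probes outshone 5′ probes 10.02-fold in WT replicate 1 and 14.1-fold in Smad4-KO replicate 2, but 2.96-fold in WT replicate 2 and 3.62-fold in the remaining array. WT replicate 1, which shares the high ratio, gave a summed signal of 893 over the 10 muscle genes, against 862 for the other WT array. The sums for Smad4-KO were 779.9 (replicate 1) and 5386 (replicate 2). Over 45101 probe sets, the array medians ran from 111 to 137. The part of labelling in the muscle signals was not tested.

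The 8 genes whose pattern over the 4 arrays was most like that of the members were taken next. Likeness was the largest gap, on the log2 scale, between a gene's values about its own mean and the mean pattern of the 8 members tested. Siglec1, a sialic acid receptor of macrophages, was nearest with a gap of 0.21 and read 36.4 and 34.8 in WT against 31.5 and 182 in Smad4-KO. Ccl4, a chemokine, came next with a gap of 0.33 (195 and 210 in WT, 252 and 1165 in Smad4-KO). Then came Neurl3, a ubiquitin ligase (0.35), Il6ra, the interleukin-6 receptor (0.37), and Pou2f2, a transcription factor of lymphocytes (0.37). Lrmda (0.49), the zinc finger protein Bnc2 (0.52) and Cks2, a partner of cell cycle kinases (0.53), completed the 8. All 8 were highest on Smad4-KO replicate 2, by 3.05-fold to 6.83-fold over the next array, which follows from how they were chosen.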

How the data were processed

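Per the labels, biotin-labelled RNA of 4 aorta pools was hybridised. The authors deposited 1 intensity per probe set and array, unlogged. The submitters' processing notes name Expression Console and RMA, yet the mean after trimming 2% at each end is 500 on every array, which RMA would not give. Of 45101 probe sets, 64 controls, 932 with several symbols and 9160 with none were left out. Limma (version 3.58.1, R 4.3.3) was fitted to log2 values with genotype as the only term and 1 probe set per gene. Genes under the 25th percentile of mean log2 signal (5.64) were dropped, leaving 13645, over which two-sided p-values were adjusted (Benjamini-Hochberg). The fit was tested on simulated data with independent errors on each array. These held no tissue carried over in 1 pool and no labelling pairs, so that test says nothing about either. Per the labels, arrays of a genotype are biological replicates, and their number limits the precision. Pools were compared by fold, with no test.

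The 10 genes, the 14 lists and the tests were chosen with earlier results of these data known. The rule for naming took all 10 members, up to 4 called genes of a list by size of difference (the 2 of lowest unadjusted p where none was called) and the 8 genes of likest pattern, with predicted or unnamed genes passed over. Not all genes it took are described, and others are named after their values were seen.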

Additional observations from a re-analysis of the deposited data

How the results depend on the processing

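With 2 arrays a genotype, 1 array decides the members' difference. Leaving out each array in turn gave medians from -0.011 (without Smad4-KO replicate 2) to 2.91 (without Smad4-KO replicate 1) over the 8 members tested, while the other alternatives gave 1.27 to 1.4996. With a filter at the 50th percentile no member remained, so that alternative gave no value. The median difference between the WT pools, -0.31, was -0.56 with median centring and -0.57 after quantile normalization; that between the Smad4-KO pools, 2.72, was 1.74 to 2.70 under its 4 alternatives. The count of members at least 2-fold above each other array on Smad4-KO replicate 2 was 5 to 7 under 5 alternatives added after seeing the data. For the other fast fibre genes the 8 became 5 with signals as deposited and the filter, and 5 at 4-fold.

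Of 13645 genes limma called 861. The count was 1321 with a replicate block, 0 with a block for the labelling pairs (2658 at an unadjusted p under 0.05), 0 without a filter (2788), 518 when a gene's probe sets were averaged, 205 with every probe set by itself, and 0 to 808 with an array left out (0 without WT replicate 2, where 1791 had an unadjusted p under 0.05). After median centring 536 of the 755 called were higher. Of 26209 probe sets 205 were called: 146 with the replicate block, 601 with a filter at the 50th percentile, 586 with trend and robust, 0 with a block for the labelling pairs, after quantile normalization, without a filter and with signals below 64 raised to 64 (3634, 3645, 4090 and 4210 at an unadjusted p under 0.05), and 0 to 139 with an array left out. The 6 fast fibre genes called lower became 0 with a block for the labelling pairs, without a filter and with every probe set by itself, 8 with the replicate block, and 0 to 7 with an array left out. None of the 24 list genes named by the rule and called changed direction under any of the 14 alternatives that gave a value. These genes were chosen because limma called them on these arrays, and in each the genotypes did not overlap. Leaving out an array could therefore not reverse them, and nothing is read from this count. The cause of these changes was not tested. Across genes, the differences between replicates in WT and in Smad4-KO were not correlated (-0.0098). Single lists varied: replicate 2 minus replicate 1 had medians of -1.12 (WT) and -1.80 (Smad4-KO) for white fat markers. For the members tested these medians were -0.31 and 2.72. Whether arrays of the same number shared more than the number was not tested. With the replicate block limma called Tnni2.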
